A study of Mus musculus with 6 samples.

Results

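The oxysterol-binding protein family was examined in mouse liver through 8 of its genes, Osbp, Osbpl1a, Osbpl2, Osbpl3, Osbpl5, Osbpl8, Osbpl9 and Osbpl11. Their rows were taken by symbol from the 39179 gene identifiers of the count files, and all 8 were found and passed the filter on low counts. The set was chosen by the counts of NASH against steatosis in these same libraries, in which the low NASH counts of Osbpl5 were already known, so the values of the 8 genes in that comparison are a description and not a test. A further 4 family genes, Osbp2, Osbpl6, Osbpl7 and Osbpl10, were read from the same files for completeness.

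All 6 livers came from C57BL/6J mice that ate a diet deriving 60% of its calories from fat for 21 weeks, starting at 5 weeks of age. Liver sections stained with haematoxylin and eosin were used to class the obese animals as having isolated steatosis, which is fat storage alone, or nonalcoholic steatohepatitis (NASH), in which inflammation and cell injury are added. Each group has 3 libraries of polyadenylated RNA. The groups are histological classes on 1 diet, no lean liver was analysed here, and the labels do not say outright that each library is a separate animal, so the spread between libraries may be partly technical.

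These proteins carry lipids across narrow gaps between membranes. A shared lipid-binding domain takes up a sterol or phosphatidylserine, and many members exchange that cargo for the phosphoinositide PI4P, which is made at the receiving membrane and broken down in the endoplasmic reticulum (ER). Most reach the ER through the anchor proteins VAPA and VAPB, whereas the products of Osbpl5 and Osbpl8 (ORP5 and ORP8) are held in the ER membrane by a transmembrane segment of their own. ORP5 and ORP8 move phosphatidylserine to the plasma membrane and also sit at contacts with mitochondria, and ORP5 has been placed at contacts between the ER and lipid droplets.

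The coding sequences show how far the relatives have diverged and whether reads could be shared between them. The stretch of Osbpl5 coding sequence best matched in the other members, 60 bases from codon 404 of 898, is shown from GENCODE M21 transcripts on GRCm38 (chr7:143703195-143703254, minus strand), each read in its own gene's direction. Capitals mark the bases that differ from Osbpl5.
Osbpl5: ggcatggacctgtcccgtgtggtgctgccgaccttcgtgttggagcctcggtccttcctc
Osbpl8: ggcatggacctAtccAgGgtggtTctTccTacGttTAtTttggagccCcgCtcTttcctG
Osbpl11: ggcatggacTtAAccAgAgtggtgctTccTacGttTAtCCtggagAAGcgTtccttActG
Osbpl3: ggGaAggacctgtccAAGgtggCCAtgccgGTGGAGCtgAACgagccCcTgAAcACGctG
Osbpl9: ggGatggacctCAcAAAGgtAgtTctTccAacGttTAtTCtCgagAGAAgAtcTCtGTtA
Osbpl2: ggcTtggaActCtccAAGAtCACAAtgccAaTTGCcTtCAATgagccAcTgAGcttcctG
Osbp: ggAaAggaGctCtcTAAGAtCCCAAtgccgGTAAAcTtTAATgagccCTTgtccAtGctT
Osbpl8 matched Osbpl5 at 76.7% of these bases and Osbpl11 at 70.0%, while the remaining members, Osbpl1a included, matched at 30 to 34 of the 60 bases. Over whole coding sequences the longest identical run was 23 bases, between Osbpl1a and Osbpl2, and it was 17 bases between Osbpl5 and Osbpl8. The reads were 150 bases long, so no identical coding run came near the length of a read. Neither Osbpl5 nor Osbpl3 shares exon positions with another annotated gene. Osbpl9 shares 633 exon bases with Nrd1 on the opposite strand and Osbpl1a shares 855 with an antisense transcript, and since the strand setting of the counting is not given in the sources used here, reads of these overlaps cannot be assigned to 1 gene.

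Total gene counts ran from 13909238 to 18002095 per library, of which mitochondrially encoded genes took 62.0% to 83.9%. Reads at 4 loci with rRNA-like sequence made up 22.3% of NASH 3 and 8.96% of steatosis 2, against 0.60% to 1.06% elsewhere, and results are therefore also given without these 2 libraries. All other genes held between 3378730 and 5149189 counts in steatosis, 21.3% to 28.6% of a library, and between 2185922 and 2719869 in NASH, 15.5% to 17.2%. The TMM factors were likewise apart, at 0.964 to 1.4997 in steatosis and 0.793 to 0.914 in NASH. The part of this split in the group differences given here was not tested. The tissue was checked with hepatocyte markers, and all 7 were measured, with summed levels of 13450 to 17700 CPM (gene counts relative to a library size scaled by TMM, a correction for library composition) in steatosis and 11550 to 13560 CPM in NASH. Over 11375 tested genes, 169 were called higher and 379 lower in NASH, a call being a Benjamini-Hochberg adjusted p under 0.05 in the quasi-likelihood test of edgeR.

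Osbpl5 and Osbpl3 were far lower in NASH than in steatosis, and none of the other 6 genes was called. Of these 6, Osbp had a log2 fold change of 0.50 and the others lay between -0.04 and 0.11. Of the 8 members 2 were called, both lower, where 4.82% of all tested genes were called, made up of 3.33% lower and 1.49% higher. Because the comparison helped to choose the set, nothing is read from this count. The 2 groups did not overlap for Osbpl5 and Osbpl3 and did overlap for the other 6, against 29.3% of tested genes without overlap.

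**Figure D1:**
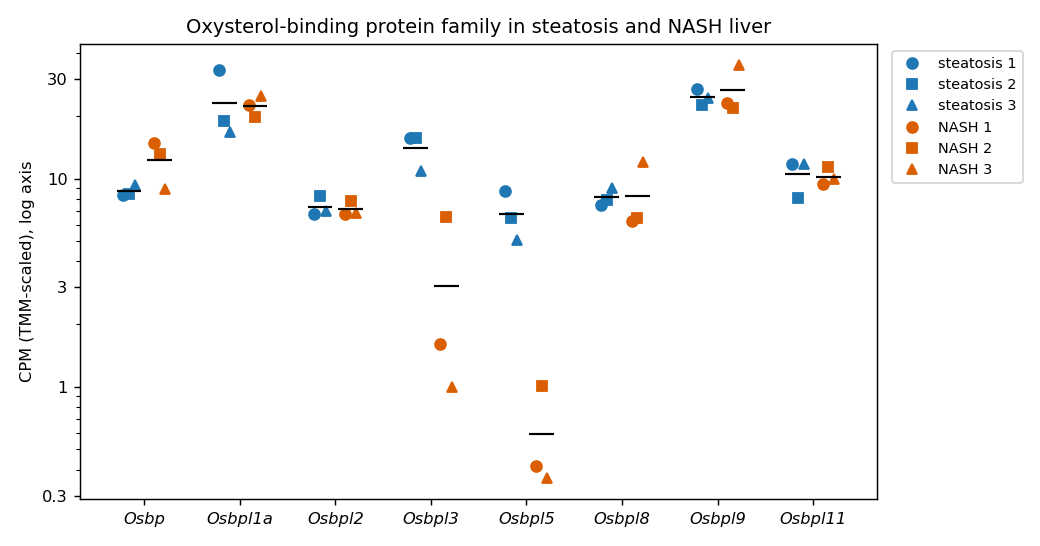
CPM of the 8 genes in every library on a log axis, with steatosis in blue, NASH in orange, a symbol for each replicate number and a black line at the group mean. Osbpl5 and Osbpl3 are the 2 genes whose groups do not overlap, and NASH 2 is the highest NASH library for both.

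Osbpl5 lies on the minus strand of chromosome 7 (GRCm38 chr7:143688762-143756985, protein-coding). It was counted 141, 108 and 136 times in steatosis 1, 2 and 3, and 6, 15 and 4 times in NASH 1, 2 and 3. On the CPM scale these were 8.69, 6.47 and 5.05 in steatosis and 0.417, 1.004 and 0.363 in NASH. Every NASH library stood below every steatosis library, with NASH 2 the highest of the 3. The mean went from 6.74 ± 1.83 to 0.595 ± 0.356 CPM (SD, n = 3 each). The log2 fold change was -3.43 with a standard error (SE) of 0.38, a level 10.8-fold lower in NASH, and 9 tested genes had a lower one. Without NASH 2 it was -4.05 (SE 0.41). Without the 2 libraries rich in rRNA-like reads it was -3.24.

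Osbpl3, on the minus strand of chromosome 6 (GRCm38 chr6:50293330-50456201, protein-coding), encodes ORP3, which binds the small GTPase R-Ras and acts in cell adhesion and at plasma membrane contacts. Its counts were 254, 260 and 293 in steatosis 1, 2 and 3 and 23, 98 and 11 in NASH 1, 2 and 3. In CPM it stood at 15.7, 15.6 and 10.9 in steatosis and 1.60, 6.56 and 0.999 in NASH. The groups did not overlap, but NASH 2 held several times the level of the other NASH libraries. The log2 fold change was -2.16 (SE 0.51). Without NASH 2 it was -3.38, and in the 4 libraries with few rRNA-like reads -1.69.

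The call of Osbpl3 was close to the threshold, whereas that of Osbpl5 was kept in all 15 alternative fits. These fits reuse all or some of the same 6 libraries and the comparison that helped to choose the set. They describe how the calls depend on the processing and are not a test. For Osbpl3 edgeR's adjusted p exceeded 0.05 when steatosis 1, 2 or 3 was left out (0.128, 0.117 and 0.0512), when NASH 1 or 3 was left out (0.117 and 0.0802), in the 4 libraries with few rRNA-like reads (0.183) and with counts scaled to the other genes without TMM (0.0605). DESeq2 gave an adjusted p of 0.0594.

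**Figure D2:**
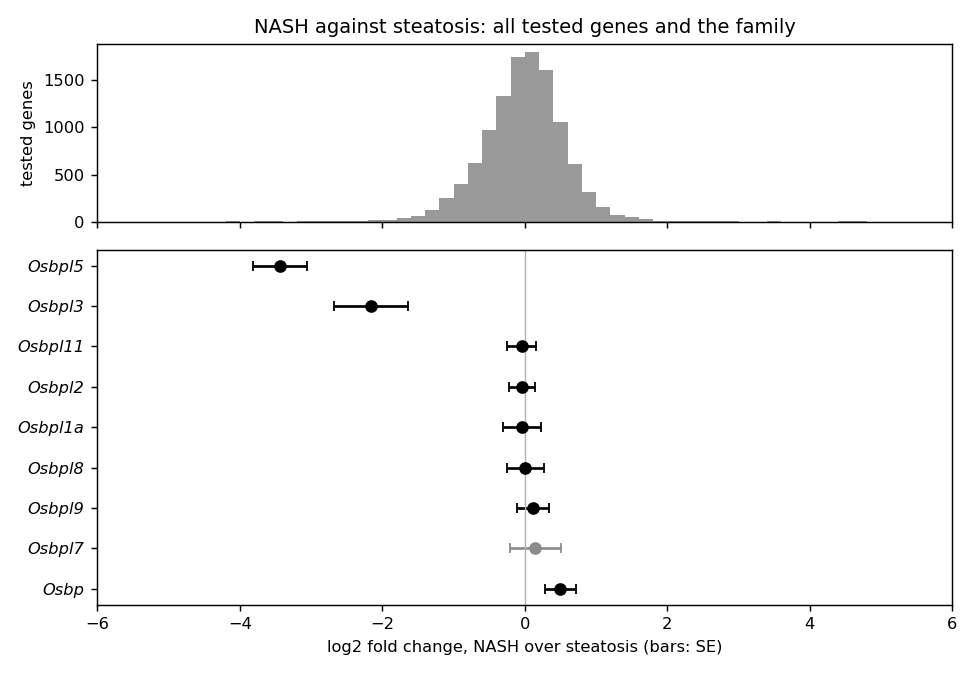
Upper panel, number of tested genes by log2 fold change of NASH over steatosis. Lower panel, the same quantity with its SE for the 8 genes (black) and Osbpl7 (grey): Osbpl5 at -3.43 and Osbpl3 at -2.16 lie in the left tail, and the others between -0.04 and 0.50.

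Osbpl8 encodes ORP8, the partner of ORP5 at the plasma membrane and the member nearest to it in the sequences shown above. It stood at 7.45, 7.91 and 8.98 CPM in steatosis and 6.25, 6.50 and 11.98 CPM in NASH. The groups overlapped, NASH 3 being the highest library and NASH 1 the lowest. The log2 fold change was 0.01 (SE 0.26), and it ran from -0.37 to 0.18 over the alternative fits. Compared per exon length inside a library, which removes any effect of library scaling, Osbpl5 was 2.23, 1.57 and 1.08 times Osbpl8 in steatosis and 0.127, 0.296 and 0.0580 times Osbpl8 in NASH. Per exon length, Osbpl5 was therefore the more abundant of the pair in each steatosis library and the less abundant in each NASH library. The order in steatosis rests on exon lengths of 4915 and 9401 bases for Osbpl5 and Osbpl8, whose coding lengths are 2694 and 2667 bases. In CPM, Osbpl5 stood below Osbpl8 in steatosis 2 and 3, at 6.47 and 5.05 against 7.91 and 8.98, and above it in steatosis 1.

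Osbp, the founding member, passes cholesterol from the ER to the Golgi in exchange for PI4P. It was measured at 8.38, 8.39 and 9.31 CPM in steatosis and at 14.7, 13.1 and 8.90 CPM in NASH. NASH 1 and NASH 2 lay above the steatosis range and NASH 3 within it. The log2 fold change was 0.50 (SE 0.22), the largest positive value among the 8, and it was not called.

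Osbpl9 and Osbpl11 encode ORP9 and ORP11, which bind each other and work around the trans-Golgi network, ORP9 as a carrier of phosphatidylserine. Osbpl9 had 26.9, 22.6 and 24.4 CPM in steatosis and 22.9, 21.8 and 35.2 CPM in NASH, and NASH 3 alone stood above the steatosis range. Osbpl11 had 11.8, 8.09 and 11.7 CPM in steatosis and 9.38, 11.4 and 9.90 CPM in NASH, all NASH values falling inside the steatosis range. Their log2 fold changes were 0.11 (SE 0.22) and -0.04 (SE 0.21), and both took either sign over the alternative fits. Per exon length Osbpl11 was 0.586 ± 0.0854 times Osbpl9 in the steatosis group and 0.556 ± 0.166 times in the NASH group (SD, n = 3 each). This ratio was lowest, at 0.387, in NASH 3.

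Osbpl1a and Osbpl2 carry the longest identical coding run of the set. The long product of Osbpl1a, ORP1L, sits on late endosomes and lysosomes and senses their cholesterol, and ORP2, the product of Osbpl2, delivers cholesterol to the plasma membrane. Osbpl1a was at 33.3, 18.9 and 16.8 CPM in steatosis and 22.5, 19.7 and 25.0 CPM in NASH. Steatosis 1 was the highest library, and the NASH values lay inside the steatosis range (log2 fold change -0.04, SE 0.26). Without steatosis 1 the log2 fold change was 0.34, and it was not called. Osbpl2 lay between 6.78 and 8.21 CPM in steatosis and between 6.74 and 7.77 CPM in NASH (log2 fold change -0.04, SE 0.19). The values of Osbpl1a and Osbpl2 also took either sign over the alternative fits.

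Of the 4 other family genes only Osbpl7 passed the filter. It averaged 1.48 ± 0.371 CPM in the steatosis group and 1.65 ± 0.681 CPM in the NASH group (SD, n = 3 each), with a log2 fold change of 0.15 (SE 0.36). Osbpl6 had 7 counts summed over steatosis and 1 over NASH, Osbpl10 had 8 and 7, and Osbp2 had 3 and 3. At this depth no difference in these 3 genes could be measured.

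Levels of different genes were compared per kilobase of exon. In steatosis the order of mean levels was Osbpl9 at 3.51 ± 0.305, Osbpl1a at 2.95 ± 1.15, Osbpl11 at 2.07 ± 0.414, Osbp at 1.94 ± 0.119, Osbpl2 at 1.75 ± 0.186, Osbpl3 at 1.56 ± 0.304, Osbpl5 at 1.37 ± 0.373 and Osbpl8 at 0.863 ± 0.0832 CPM per kilobase (SD, n = 3 each). Each neighbouring pair in this order overlapped except Osbpl5 and Osbpl8. In NASH, Osbpl9 was again at the top with 3.81 ± 1.06 CPM per kilobase. Osbpl3 and Osbpl5 came last with 0.338 ± 0.338 and 0.121 ± 0.0724 CPM per kilobase. The NASH order fell by a clear step between Osbpl2, with a lowest value of 1.61, and Osbpl8, with a highest value of 1.28 CPM per kilobase, and all its other neighbours overlapped.

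The summed level of the 8 genes overlapped between the groups. Per kilobase they added up to 16.01 ± 1.90 CPM in the steatosis group and 14.45 ± 0.726 CPM in the NASH group (SD, n = 3 each). Of this sum Osbpl5 supplied 9.71%, 8.81% and 6.90% in steatosis 1, 2 and 3 and 0.614%, 1.43% and 0.485% in NASH 1, 2 and 3. Osbpl3 supplied 9.53%, 11.55% and 8.10% in steatosis and 1.28%, 5.09% and 0.726% in NASH. The other 6 genes summed to 13.1 ± 1.44 CPM per kilobase in steatosis and 13.99 ± 0.933 in NASH, with overlapping groups.

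**Figure D3:**
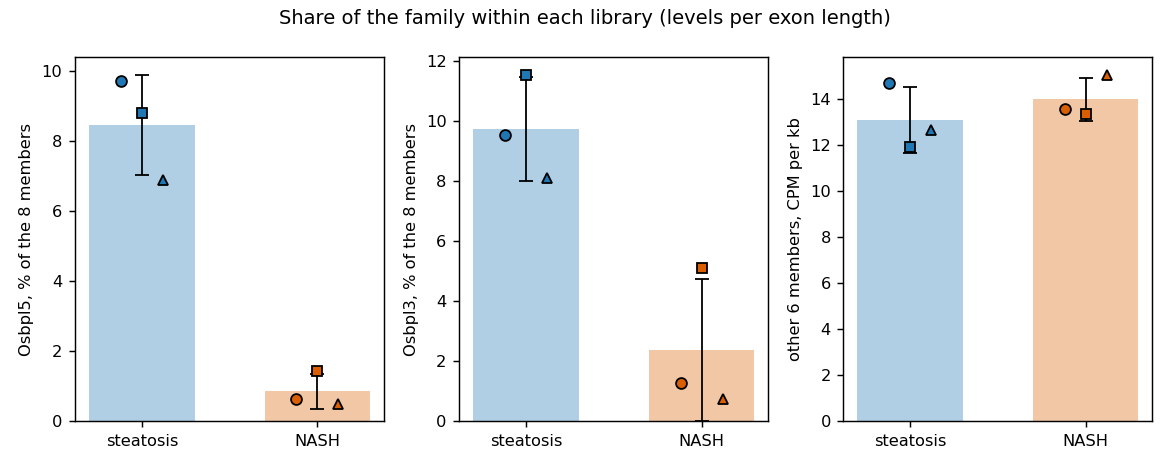
Left and middle, Osbpl5 and Osbpl3 as a percentage of the summed level of the 8 genes per exon length; right, the summed level of the other 6 genes in CPM per kilobase. Bars are means of 3 libraries, lines are SD and symbols are libraries: the first 2 measures separate the groups and the third does not.

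In liver as a bulk tissue, fewer cells of a type and less RNA per cell cannot be told apart. The summed levels of 3 marker lists did not overlap between the groups. The 7 stellate cell markers summed to 55.9 to 66.4 CPM in steatosis and 32.6 to 45.8 CPM in NASH, where 1 of 7, Dcn, was called lower. Dcn supplied much of this difference, with a mean of 23.1 CPM in the steatosis group and 11.4 CPM in the NASH group. Lum did not overlap between the groups either, whereas Col1a1, Col3a1, Reln, Lrat and Colec11 did, Lrat with a log2 fold change of 0.16. The 6 cholangiocyte markers summed to 23.9 to 42.0 CPM in steatosis and 12.4 to 23.3 CPM in NASH, with 0 of the 3 tested called by edgeR. That sum was mostly Spp1, at 26.2, 38.5 and 20.7 CPM in steatosis and 16.4, 10.5 and 21.3 CPM in NASH, whose groups overlapped, as did those of Krt19 and Krt7. Sox9 was higher in every NASH library, with a log2 fold change of 0.79 that was not called. Epcam went the other way and was lower in every NASH library. Its counts summed to 31 over steatosis and 14 over NASH, too few for it to be tested. Sinusoidal endothelial markers went the other way, from 65.7 to 85.8 CPM in steatosis to 93.4 to 131 CPM in NASH, with 0 of 7 called by edgeR. Stab1 supplied much of this difference, with 37.1 ± 5.30 CPM in the steatosis group and 62.9 ± 11.6 CPM in the NASH group (SD, n = 3 each). Clec4g and Fcgr2b did not overlap between the groups either, whereas Stab2, Oit3, Kdr and Lyve1 did, the last 3 with log2 fold changes of 0.01, 0.05 and -0.21.

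The summed levels of the remaining marker lists overlapped between the groups. The 7 Kupffer cell markers summed to 31.4 to 38.4 CPM in steatosis and 25.2 to 62.2 CPM in NASH, the 6 markers of recruited macrophages to 11.3 to 12.3 and 10.1 to 17.95 CPM, the 4 neutrophil markers to 1.62 to 3.75 and 1.94 to 4.99 CPM and the 6 lymphocyte markers to 1.08 to 2.22 and 0.804 to 1.60 CPM. No marker of any list was at 0 in all 6 libraries. Some single markers of these lists did not overlap between the groups, and none of them was called. Vsig4, a Kupffer cell marker, and the hepatocyte marker Apoa1 were higher in every NASH library, with log2 fold changes of 0.63 and 0.50. The hepatocyte markers Alb, Ttr and Apoa2 were lower in every NASH library, with log2 fold changes of -0.40, -0.54 and -0.79. The part of cell makeup in the values of Osbpl5 and Osbpl3 was not tested.

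The genes whose pattern over the 6 libraries was most like that of Osbpl5 were looked for among 3413 protein-coding genes whose log2 CPM averaged 3 or more. By Pearson correlation of log2 CPM these were Inmt (0.997), Ces1g (0.996), Col27a1 (0.994), Slc25a39 (0.994) and Fmo1 (0.992). Inmt encodes a methyltransferase of indole amines, Ces1g a carboxylesterase in a cluster of close copies, Col27a1 a fibrillar collagen, Slc25a39 a mitochondrial carrier of glutathione and Fmo1 a flavin monooxygenase. Inmt averaged 85.9 ± 15.1 CPM in the steatosis group against 27.4 ± 5.11 CPM in the NASH group, and Col27a1 152 ± 26.1 against 50.1 ± 9.62 CPM (SD, n = 3 each). All 5 were called lower in NASH, against 3.33% of tested genes, but likeness to a gene chosen for its low NASH level fixes that direction and nothing is read from it. The call of Slc25a39 was lost when any 1 library was left out, with the replicate block and with counts scaled to the other genes without TMM, those of Ces1g and Fmo1 without some of them, and all 5 in the 4 libraries with few rRNA-like reads. The 6 points of each correlation share the grouping, the libraries and their scaling. The fold changes of these genes were smaller than that of Osbpl5, with log2 values from -1.65 for Inmt to -0.88 for Slc25a39. Osbpl3 had a correlation of 0.948 with Osbpl5, and 116 of the 3413 genes reached 0.95.

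Promoters are shown for Osbpl5 and Osbpl3 because these 2 members were called, both lower in NASH. Each is the RefSeq GRCm38.p6 sequence from 250 bases before to 50 bases after a start, read in the direction of the gene. For Osbpl5 the most upstream of 3 listed starts was taken (chr7:143756959-143757258, minus strand), and for Osbpl3 the only one listed (chr6:50456121-50456420, minus strand). Capitals mark matches on either strand to the motifs named after the sequences.
Osbpl5: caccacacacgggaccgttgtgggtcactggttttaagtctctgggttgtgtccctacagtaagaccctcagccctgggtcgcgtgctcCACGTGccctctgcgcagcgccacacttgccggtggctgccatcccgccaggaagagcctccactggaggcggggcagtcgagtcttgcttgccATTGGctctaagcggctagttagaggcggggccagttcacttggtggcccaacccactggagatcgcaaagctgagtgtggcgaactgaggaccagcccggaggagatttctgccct
Osbpl3: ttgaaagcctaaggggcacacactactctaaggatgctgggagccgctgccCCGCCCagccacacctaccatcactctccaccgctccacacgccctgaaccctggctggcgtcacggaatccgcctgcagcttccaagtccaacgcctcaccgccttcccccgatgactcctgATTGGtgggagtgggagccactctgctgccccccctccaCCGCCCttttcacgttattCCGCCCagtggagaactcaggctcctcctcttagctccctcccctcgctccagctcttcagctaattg
In the Osbpl5 sequence there was 1 E-box (CACGTG) and 1 CCAAT box (CCAAT), which 7.15% and 37.4% of 32851 promoter windows of this length hold. In the Osbpl3 sequence there were 3 GC boxes (GGGCGG, held by 35.7% of windows) and 1 CCAAT box. The direct repeats bound by LXR and PPAR, the half-site that both contain (AGGTCA), a sterol regulatory element (TCACNCCAC) and a STAT site (TTCNNNGAA) were also searched. None of these 5 matched in either window, where they are held by 0.0152%, 0.0396%, 16.3%, 1.24% and 8.30% of all windows. The pair had 16 and 14 CG dinucleotides against a median of 7 over all windows, of which 67.0% and 63.7% had fewer. The windows of Osbp, Osbpl2, Osbpl8, Osbpl9 and Osbpl11 had more, from 17 to 34. At the other 2 Osbpl5 starts the windows had 21 and 1 CG dinucleotides, so this order depends on the start taken. The CCAAT box was the single motif that both sequences held. It is not particular to them, since windows of Osbp, Osbpl2, Osbpl9 and Osbpl11 held it too, while that of Osbpl8 did not. The windows at the other 2 Osbpl5 starts, which are not shown, held 3 GC boxes and 1 STAT site. Neither held a CCAAT box, so the motifs shared with Osbpl3 depend on the start taken.

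The position of Osbpl5 was not used to choose it, so its neighbours were read from the fit over all genes. Osbpl5 lies at the end of a cluster of genes, with Cdkn1c, Phlda2 and Slc22a18, that is known for imprinted expression in the mouse placenta. Of 21 genes in the files within 250 kb of it, 7 were tested, 2 were called higher in NASH and 0 lower, against 1.49% and 3.33% of all tested genes. None of the 7 was called lower, as Osbpl5 was.

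Dhcr7, the last enzyme of cholesterol synthesis, lies 66160 bases away. Its values were 5.85, 4.195 and 4.192 CPM in steatosis and 15.2, 15.3 and 14.4 CPM in NASH. The groups were well apart (log2 fold change 1.66, SE 0.20, adjusted p = 0.00379 by edgeR), and the call was lost in the 4 libraries with few rRNA-like reads (adjusted p = 0.0602 by edgeR). Cars, the cysteinyl-tRNA synthetase, rose by 0.99 on the log2 scale (adjusted p = 0.0482 by edgeR), with 12.8 ± 2.18 CPM in the steatosis group and 25.45 ± 7.92 CPM in the NASH group (SD, n = 3 each). Its call was lost when any 1 of the 6 libraries was left out, in the 4 libraries and with limma-voom.

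The other 5 tested neighbours were not called. Nadsyn1, which makes NAD, had a log2 fold change of 0.70 (adjusted p = 0.084 by edgeR), with all NASH libraries above the steatosis range. Nap1l4, a histone chaperone whose groups did not overlap either, stood at 0.33 and Shank2, a scaffold protein, at 0.92, which was called with no filter (adjusted p = 0.021 by edgeR). Slc22a18, a transporter, and Cdkn1c, a cell cycle inhibitor, stood at 0.02 and -0.20, and both changed sign when some libraries were left out. Tnfrsf23, which ends 2890 bases from Osbpl5, had 16 counts in all and was not tested.

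**Figure D4:**
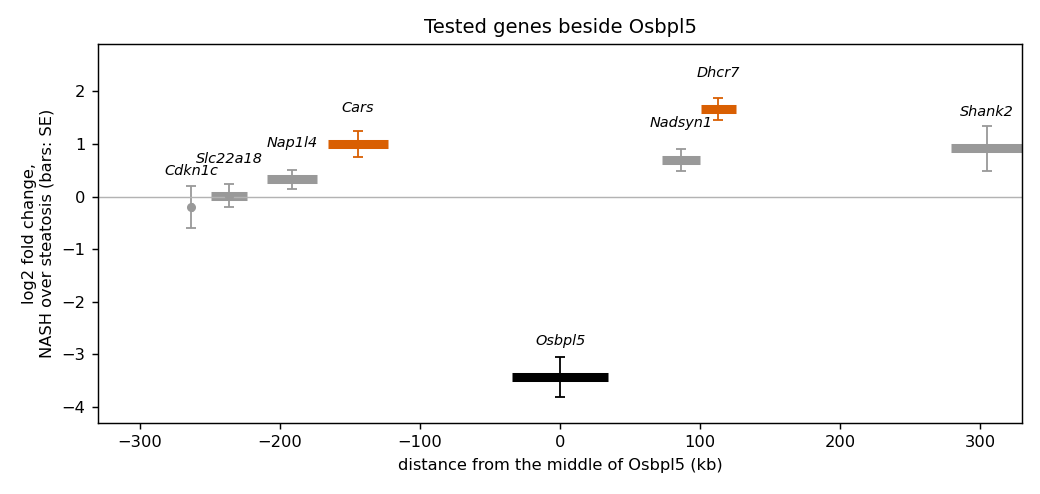
Log2 fold change of NASH over steatosis, with SE, for Osbpl5 (black) and the 7 tested genes within 250 kb, drawn at their distance from the middle of Osbpl5; orange genes were called higher, and Shank2 is cut at the right edge. Osbpl5 at -3.43 lies far below the tested neighbours, the lowest of which is Cdkn1c at -0.20.

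Genes that work with these proteins were followed through 4 lists, in which 4 genes were called higher and 5 lower. In the 4 libraries with few rRNA-like reads 0 of them were called, where 17 genes were called higher and 19 lower over the whole table. The first held the ER anchors and the enzymes that make and remove PI4P. Of its 19 tested genes 0 were called by edgeR, against 4.82% of all tested genes. At an unadjusted p under 0.05 there were 6, 4 of them lower, against 23.2% of all tested genes, 12.9% lower. DESeq2 called 1, Pi4k2a, and limma-voom 0. The median log2 fold change was -0.13, against 0.01 over all tested genes. Pi4k2a, a kinase that makes PI4P on endosomes and the Golgi, was at 11.3, 13.9 and 16.6 CPM in steatosis and 25.8, 23.9 and 20.7 CPM in NASH (log2 fold change 0.75, SE 0.20, adjusted p = 0.0604 by edgeR). It was called by DESeq2 (adjusted p = 0.0324), and by edgeR with no filter (adjusted p = 0.0407) and without steatosis 3 (adjusted p = 0.0483), while its highest adjusted p over the alternatives was 0.222. Arf1, the GTPase that recruits OSBP to the Golgi, had a log2 fold change of -0.19 (adjusted p = 0.581 by edgeR).

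The anchors Vapa and Vapb, chosen after their values were seen, had lower NASH values without passing the test. Vapa was at 13.5, 11.9 and 12.3 CPM in steatosis and 6.39, 6.70 and 9.72 CPM in NASH (log2 fold change -0.73, SE 0.21, adjusted p = 0.0744 by edgeR). For Vapb the log2 fold change was -0.64 (SE 0.20, adjusted p = 0.0979 by edgeR). The groups of Vapa and Vapb did not overlap, as was so for 29.3% of all tested genes, 16.2% with NASH lower. Mospd1, Mospd2 and Mospd3 of the same list had log2 fold changes of -0.48, -0.63 and -0.24 and were not called. The groups of Mospd2 and Mospd3 overlapped.

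Phosphatidylserine, the cargo of ORP5 and ORP8, was followed through 16 genes, all tested. Of these 2 fell and 1 rose, where 3.33% of all tested genes were called lower and 1.49% higher. The median log2 fold change of the list was -0.33, against 0.01 over all tested genes. Ptdss1, a synthase that makes phosphatidylserine in the ER, was at 7.58, 5.93 and 6.31 CPM in steatosis and 3.75, 2.75 and 3.54 CPM in NASH. It fell by 0.98 on the log2 scale (SE 0.22, adjusted p = 0.0337 by edgeR). Ptdss1 shares 229 exon bases with Mterf3 on the opposite strand, and reads of this overlap cannot be assigned to 1 gene. The second synthase, Ptdss2, chosen after its value was seen, had a log2 fold change of 0.12 (adjusted p = 0.823 by edgeR). Serinc1, of a family named for serine incorporation into lipids, fell by 1.13 on the log2 scale (adjusted p = 0.0468 by edgeR). It averaged 23.8 ± 2.49 CPM in the steatosis group and 10.9 ± 4.12 CPM in the NASH group (SD, n = 3 each). Atp11a, a flippase that returns phosphatidylserine to the inner leaflet, rose by 1.55 on the log2 scale (SE 0.37, adjusted p = 0.0455 by edgeR). In NASH it stood at 24.9, 15.3 and 41.04 CPM, above a steatosis range of 6.65 to 13.6 CPM.

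These 3 calls did not hold in every alternative fit. The calls of Ptdss1 and Serinc1 were lost when any 1 of the 6 libraries was left out and with counts scaled to the other genes without TMM. That of Serinc1 was also lost with DESeq2's size factors, and that of Atp11a without steatosis 1, steatosis 2, NASH 1 or NASH 3. With 1 library left out, the log2 fold change ran from -1.08 to -0.84 for Ptdss1, -1.30 to -0.82 for Serinc1 and 1.13 to 1.98 for Atp11a. The highest edgeR adjusted p over all alternatives was 0.153, 0.158 and 0.269 for Ptdss1, Serinc1 and Atp11a. Among the most abundant genes of the list, Tmem30a, the partner subunit of flippases, and Serinc3 were not called (log2 fold changes -0.08 and -0.34). Tmem30a changed sign when steatosis 3 or NASH 2 was left out and with counts scaled to the other genes without TMM.

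Among 33 tested genes of other lipid transfer proteins 1 rose and 0 fell by edgeR, where 1.49% of all tested genes were called higher and 3.33% lower. At an unadjusted p under 0.05 there were 11, 6 of them lower, against 23.2% and 12.9% of all tested genes. The median log2 fold change was -0.03. DESeq2 called 3 and limma-voom 1. The gene that rose, Gramd1c, encodes a sterol carrier of the Aster family that takes cholesterol from the plasma membrane to the ER. It was at 19.2, 19.4 and 25.7 CPM in steatosis and 42.4, 41.7 and 46.1 CPM in NASH (log2 fold change 1.02, SE 0.20, adjusted p = 0.0232 by edgeR). The groups were well apart, but the call was lost without any 1 library other than steatosis 3. The 2 most abundant genes of the list were not called in the fit of all 6 libraries. Stard10, a carrier of phosphatidylcholine and phosphatidylethanolamine, had a log2 fold change of -0.59 (adjusted p = 0.133 by edgeR). Scp2, the sterol carrier protein of peroxisomes, had 725, 752 and 685 CPM in steatosis and 782, 142 and 271 CPM in NASH, so that NASH 1 lay above and NASH 2 and 3 far below the steatosis range. Its log2 fold change was -0.86 (SE 0.50, adjusted p = 0.339 by edgeR) and ran from -1.80 to -0.44 with 1 library left out. It was called without NASH 1 (adjusted p = 0.0448 by edgeR) and with no filter (adjusted p = 0.0451 by edgeR).

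Oxysterols, which give the family its name, are made by cholesterol hydroxylases and activate the nuclear receptor LXR. Of 21 tested genes of this list 2 rose and 3 fell, where 4.82% of all tested genes were called, 1.49% higher and 3.33% lower. The median log2 fold change of the list was -0.18. Cyp46a1, which makes the 24-hydroxylated oxysterol mainly known from brain, was at 19.7, 21.2 and 15.7 CPM in steatosis and 6.88, 8.37 and 5.08 CPM in NASH. It fell by 1.46 on the log2 scale (SE 0.23, adjusted p = 0.0104 by edgeR). Cyp7a1, which commits cholesterol to bile acids, fell by 2.39 (adjusted p = 0.00809 by edgeR), and of the 15 alternatives both calls were lost only in the 4 libraries with few rRNA-like reads (adjusted p = 0.111 and 0.0744 by edgeR). Apoe, which carries cholesterol in lipoproteins, fell by 1.19 (adjusted p = 0.0458 by edgeR). Its call was lost without any 1 library other than steatosis 3, with DESeq2's size factors, with counts scaled to the other genes without TMM and with the replicate block.

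The 2 genes that rose act in the control and use of newly made lipid. Insig1, which retains the SREBP precursor in the ER, rose by 1.75 on the log2 scale (adjusted p = 0.0104 by edgeR). It averaged 11.3 ± 2.75 CPM in the steatosis group and 38.0 ± 11.1 CPM in the NASH group (SD, n = 3 each), and its call was lost without steatosis 2. Scd1, the stearoyl-CoA desaturase, rose by 1.43 (adjusted p = 0.0288 by edgeR), a call lost without any 1 library other than steatosis 1. The LXR gene Nr1h3 and its target Abca1, both chosen after their values were seen, had log2 fold changes of -0.01 and -0.25 (adjusted p = 0.977 and 0.679 by edgeR). Other genes of the list, chosen in the same way, went in either direction without a call. Srebf1 stood at 0.82, Pltp at 0.66 and Abcg1 at -0.60. Over the tested genes of the list 7 values were positive and 14 negative.

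**Figure D5:**
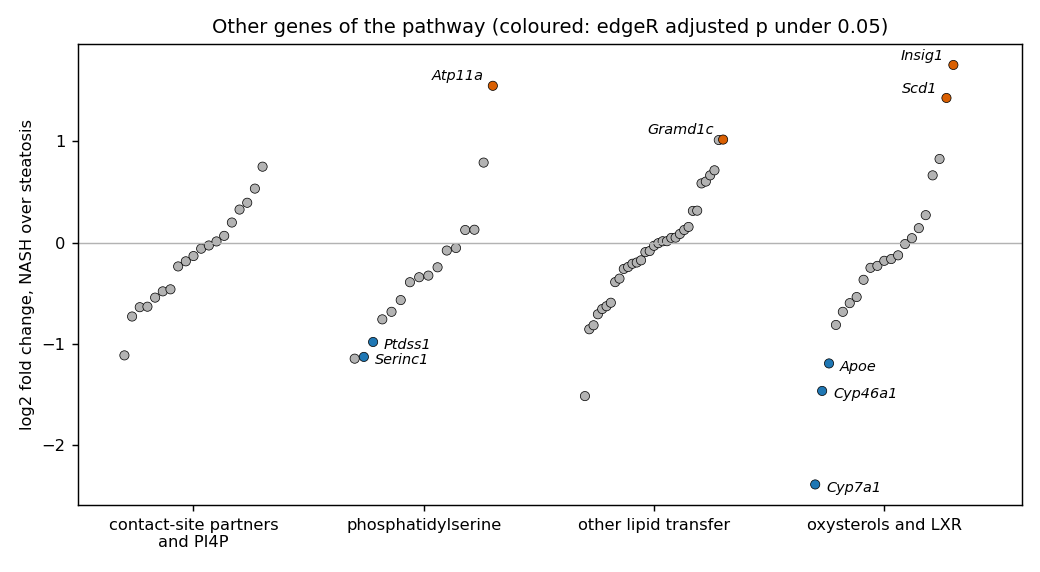
Log2 fold change of NASH over steatosis for each tested gene of the 4 lists, ordered by value within a list; orange genes were called higher, blue genes lower and grey genes were not called. The first list has 0 calls and the others have 3, 1 and 5 from left to right.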

How the data were processed

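Per the submitters' processing notes, reads were processed with TopHat2 and HTSeq on the mm10 (GRCm38) mouse genome, while the sources used here do not give versions, strand setting or annotation release. Each deposited file lists unnormalized counts per gene for 39179 Ensembl identifiers, of which 37607 had a symbol. The 1572 others held 0.0657% to 0.119% of a library's counts.

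Counts were analysed with edgeR 4.0.16 in R 4.3.3, with the default filter (11375 genes), TMM factors of 0.793 to 1.50 and a quasi-likelihood test of NASH against steatosis, with Benjamini-Hochberg adjustment and a threshold of 0.05. SEs of log2 fold changes are approximate and come from dividing the estimate by the square root of F. CPM are counts relative to the TMM-scaled library size, divided by union exon length (GENCODE M21) where genes are compared. Correlations used log2 CPM with a prior count of 2. The fit was tested on simulated data. No library repeated another, since chi-square over degrees of freedom was 34 or more for every pair.

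The members and lists were chosen with earlier results of these data known. Named by rule were the members, of each list up to 6 called genes by p and the 2 most abundant, tested genes within 250 kb of Osbpl5 and the 5 genes most correlated with it, leaving out predicted models. Nothing on protein sequences was computed. Alternatives were DESeq2 1.42.0, limma-voom (limma 3.58.1), other scalings and filters, a replicate block and left-out libraries. Intervals of counting error are not given.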

Additional observations from a re-analysis of the deposited data

How the results depend on the processing

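The Osbpl5 log2 fold change stayed between -4.05 and -3.20 in the 15 alternatives, both ends coming from leaving out 1 library, and the Osbpl3 value between -3.38 and -1.69. The number of called members, 2, was 1 with counts scaled to other genes without TMM, with DESeq2 and in the 4 libraries with few rRNA-like reads, and 1 to 2 with 1 library left out. Over all genes, 169 higher and 379 lower calls became 535 and 912 with no filter, 316 higher with DESeq2, 222 lower (against 179 higher) scaled to other genes, and 17 and 19 in the 4 libraries, and ran from 29 to 170 higher and 77 to 298 lower with 1 library left out. That scaling moved the median over all genes to 0.12 on the log2 scale. Of the listed genes, 4 higher and 5 lower became 7 and 13 with no filter, 0 and 0 in the 4 libraries, 3 lower with DESeq2's size factors and 2 lower scaled to other genes, and ran from 0 to 4 higher and 2 to 4 lower with 1 library left out. Fits without a library have fewer samples by construction, and other causes were not tested.

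Small values changed sign. Slc22a18 was at -0.011 with no filter and ran from -0.063 to 0.16 with 1 library left out. Cdkn1c ran from -0.41 to 0.026 with 1 library left out. Tmem30a was at 0.0058 scaled to other genes and ran from -0.33 to 0.23 with 1 library left out. Of the members that were not called, Osbp was positive in every fit (0.35 to 0.69), while Osbpl1a, Osbpl2, Osbpl8, Osbpl9 and Osbpl11 took either sign, between -0.37 and 0.34. By CPM without exon length Osbpl5 ranked 8 of 8 in steatosis instead of 7. Same-numbered libraries did not deviate together (correlations 0.035, -0.012 and 0.071), so the numbers were not taken as pairs. With the replicate block 153 genes were higher and 313 lower, and the Osbpl5 value was -3.48. The 25 Osbpl5 counts in NASH limit the precision of its fold change.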
